A study of Homo sapiens with 24 samples.

Results

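The 5 genes described here are GADD45A, GADD45B and GADD45G, which make up the human GADD45 family, and PPP1R15A and PPP1R15B, the stress-induced and the constitutive targeting subunit of one phosphatase. PPP1R15A is also known as GADD34 and PPP1R15B as CReP. They were matched by symbol to a table of raw read counts over 58381 genes. All 5 were found, and all 5 were among the 20820 genes that passed the filter on low counts, although GADD45G passed only through its counts in 1 of the 4 lines. The libraries were poly(A) RNA-seq from 4 established human lines from bladder cancer (T24 and 5637, TCC-SUP, and CLS-439). In each line, cells given 75 µM mitomycin C for 1 h and collected 15 h later were set against untreated cells. Mitomycin C (MMC) is an alkylating antibiotic that crosslinks DNA and is instilled into the bladder as chemotherapy. There were 8 groups of 3 libraries, numbered 1, 3 and 4 in every group, and the design text calls these biological replicates. Each line is a single established tumour line, so differences between lines are differences between 4 cultures and not between tumour types.

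Library totals ran from 13791428 to 28821665 counts, with the lowest in CLS-439 MMC replicate 1. The 6 CLS-439 libraries stood apart from the rest. Mitochondrial genes took 0.0238% to 0.0283% of their counts, against 3.21% to 7.40% in the 18 libraries of the other lines, and processed pseudogenes took 2.75% to 3.05%, against 0.143% to 0.228%. The part of this difference in the results below was not tested. Fitted values and ratios that pool the lines are given with and without CLS-439 where this changed them. Correlations between genes were taken over all 24 libraries only. The keratins KRT7, KRT8 and KRT18, which mark epithelial cells, were detected in every library, at 23.1 CPM or more, where CPM is the count scaled to a common library total. The other epithelial markers were not present in every line, with CDH1 (E-cadherin) at 0.108 CPM or less in T24 and 0.682 to 2.5 CPM in CLS-439, EPCAM at 1.05 to 3.25 CPM in T24 and KRT19 at 0.472 to 3.06 CPM in CLS-439. Mesenchymal markers were present as well, with FN1 at 1230 CPM or more and CDH2 at 118 CPM or more in every library. VIM lay at 1110 to 1610 CPM in CLS-439, 433 to 730 in 5637, 37.9 to 84.4 in T24 and 8.32 to 11.3 in TCC-SUP. The uroplakins UPK2 and UPK3A, which mark the differentiated bladder surface, were at 0.514 CPM or less in every library, and UPK1B reached 2.94 to 8.04 CPM in CLS-439 and at most 2.3 CPM in the other lines. GATA3, a luminal urothelial factor, lay between 0.937 and 2.27 CPM in CLS-439, against 20.6 CPM or more in the other lines, whereas the urothelial factor PPARG was at 36.8 to 52.2 CPM in CLS-439 and 17.9 CPM or more in the others. The keratin KRT5 lay between 429 and 1260 CPM in 5637 and at 1.19 CPM or less in the other lines. The T-cell gene CD3E and the macrophage gene CD68 were at or near 0 throughout, whereas the leukocyte gene PTPRC lay between 9.12 and 31.2 CPM in TCC-SUP.

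GADD45 proteins are small acidic nuclear proteins without enzyme activity of their own. They bind MAP3K4 to activate the p38 and JNK kinases, bind CDK1 and PCNA in cell-cycle arrest and repair, and have been described as adaptors in DNA demethylation. GADD45A is a textbook DNA damage-induced gene, GADD45B is induced by NF-kB and TGF-beta signalling, and GADD45G is often silenced by promoter methylation in tumours. PPP1R15A and PPP1R15B both bring the catalytic subunit of protein phosphatase 1 to the translation initiation factor eIF2 alpha and remove the phosphate that stress kinases place there. PPP1R15A is a target of the integrated stress response, in which ATF4 and DDIT3 (CHOP) are induced, and closes a feedback loop that restores translation. PPP1R15B holds basal eIF2 alpha phosphorylation low.

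In GENCODE release 29 on GRCh38, GADD45A lies on chromosome 1 at 67685061 to 67688338 on the plus strand, GADD45B on chromosome 19 at 2476122 to 2478259 on the plus strand, and GADD45G on chromosome 9 at 89605013 to 89606555 on the plus strand. PPP1R15A lies on chromosome 19 at 48872392 to 48876057 on the plus strand, and PPP1R15B on chromosome 1 at 204403387 to 204411791 on the minus strand. An annotated antisense gene, PPP1R15B-AS1, overlaps PPP1R15B and held at most 10 counts in any library.

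The upstream sequences of 3 members are shown because PPP1R15A and PPP1R15B are the paralogues whose responses to mitomycin C differed, and GADD45B responded in some lines and not in others. Each is the 250 bases before the RefSeq transcription start (GRCh38.p14), 5′ to 3′ on the gene's own strand. Capitals mark matches, on either strand, to 7 motifs: the cAMP response element TGACGTCA, the C/EBP-ATF response element TGATGNAA, the NF-kB site, the E-box CACGTG, the octamer ATTTGCAT, the CCAAT box and the TATA box TATAAA. No 2 matches overlap.
PPP1R15A (chr19:48872171-48872420, plus strand): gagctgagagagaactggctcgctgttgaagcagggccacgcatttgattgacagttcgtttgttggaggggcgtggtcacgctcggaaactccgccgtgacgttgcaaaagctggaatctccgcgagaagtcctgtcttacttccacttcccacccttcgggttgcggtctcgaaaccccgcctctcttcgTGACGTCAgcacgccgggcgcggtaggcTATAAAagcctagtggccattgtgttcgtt
PPP1R15B (chr1:204411818-204412067, minus strand): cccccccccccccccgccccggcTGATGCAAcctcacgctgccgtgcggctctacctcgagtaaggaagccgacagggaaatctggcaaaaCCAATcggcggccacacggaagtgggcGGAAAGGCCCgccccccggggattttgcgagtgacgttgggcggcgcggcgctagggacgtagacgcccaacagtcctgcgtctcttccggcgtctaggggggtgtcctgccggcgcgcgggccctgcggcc
GADD45B (chr19:2475877-2476126, plus strand): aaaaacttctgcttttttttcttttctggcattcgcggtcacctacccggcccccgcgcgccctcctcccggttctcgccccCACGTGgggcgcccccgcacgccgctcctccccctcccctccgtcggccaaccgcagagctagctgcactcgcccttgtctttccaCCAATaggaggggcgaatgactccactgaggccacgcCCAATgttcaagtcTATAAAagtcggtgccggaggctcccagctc
The PPP1R15A window held the cAMP response element 58 to 51 bases before the start, a motif present in 1.77% of 27305 RefSeq promoter windows of this length, and a TATA box 30 to 25 bases before it (11.1% of windows). PPP1R15B had neither. It held a C/EBP-ATF element 227 to 220 bases before the start (3.19% of windows), a CCAAT box (33.0%) and, on the reverse strand, a match to the NF-kB site (1.73%). GADD45B held an E-box 168 to 163 bases before the start (6.49%), 2 CCAAT boxes and a TATA box 31 to 26 bases before it. The octamer, found in 1.66% of windows, was in none of these 3. GADD45G, whose window is not printed because its counts were near 0, held a C/EBP-ATF element, a CCAAT box and an E-box. A match describes the letters only.

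GADD45A rose in 3 of the 4 lines after mitomycin C, most in T24, and GADD45B rose in 2. PPP1R15A rose in T24, 5637 and TCC-SUP, as GADD45A did, whereas PPP1R15B rose in T24 and was not called in the other lines. In bulk RNA, a larger share of cells expressing a gene and more RNA per cell cannot be told apart. Differences are log2 fold changes of MMC-treated over untreated cells with their standard errors, from edgeR's quasi-likelihood test with p-values adjusted by Benjamini-Hochberg over the 20820 genes tested, and a gene is said to rise or fall where the adjusted p is under 0.05. In T24, 4 of the 5 members were called higher, against 15.2% of all genes tested. In 5637 3 of the 5 were called higher, against 15.9%, and in TCC-SUP 2 of the 5, against 9.57%. In CLS-439, edgeR called 0 of the 5, 2 had an unadjusted p under 0.05 and DESeq2 also called 0, while 0.298% of all genes were called higher there. GADD45G is counted among the 5 but held only 0 to 8 counts a library outside CLS-439, so its lack of a call there says little.

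**Figure D1:**
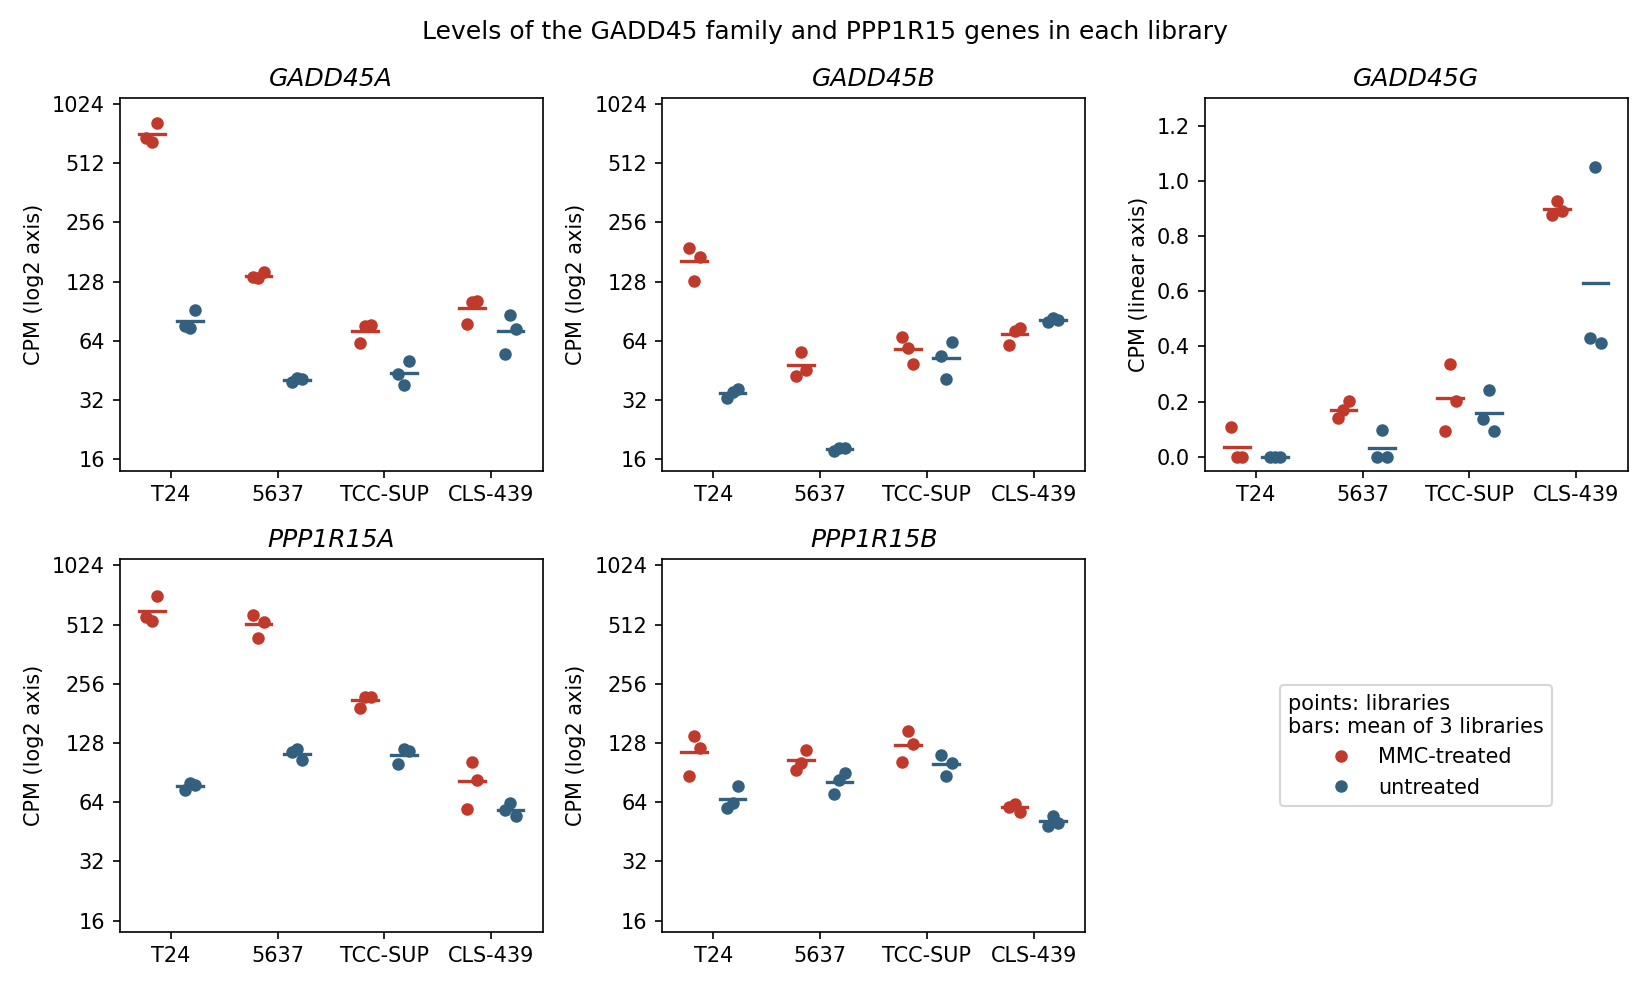
Level of each member in every library, in CPM scaled by TMM, with 1 panel a gene and the 4 lines along the horizontal axis. MMC-treated libraries stand left of untreated ones, each point is 1 library and the bar is the mean of 3. The axis is log2 except for GADD45G, which is linear because it holds values of 0. GADD45A and PPP1R15A stood clear of the untreated libraries in T24, 5637 and TCC-SUP and overlapped them in CLS-439.

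GADD45A, the family member most often used as a marker of genotoxic stress, had 689, 655 and 822 CPM in MMC-treated T24 libraries, against 76.5, 74.8 and 91.9 CPM in untreated ones. The lowest treated library was therefore several times the highest untreated one. The log2 fold change was 3.15 (SE 0.16, edgeR adjusted p = 2.19e-12), an 8.91-fold rise. In 5637 the levels were 135, 134 and 143 CPM with MMC and 39.7, 41.4 and 40.8 CPM without. The groups were again far apart, with a log2 fold change of 1.76 (SE 0.15, edgeR adjusted p = 1.62e-08). TCC-SUP showed a smaller separation, with 62.5, 76.1 and 77.3 CPM in treated and 43.6, 38.2 and 50.5 CPM in untreated libraries. Here the log2 fold change was 0.71 (SE 0.15, edgeR adjusted p = 0.00191). That call was lost when replicate 3 was left out of all groups (0.57, adjusted p = 0.102) and when replicate 4 was (0.75, adjusted p = 0.0758). In CLS-439 the levels were 78.2, 101 and 101 CPM with MMC and 54.9, 86.4 and 73.4 CPM without, and the groups overlapped. The log2 fold change of 0.39 had a 95% interval of 0.07 to 0.71 and missed the threshold after adjustment (SE 0.15, edgeR adjusted p = 0.432).

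GADD45B rose in fewer lines and by less. T24 held 190, 129 and 171 CPM with MMC and 32.6, 35.3 and 36.6 CPM without, a log2 fold change of 2.23 (SE 0.17, edgeR adjusted p = 9.56e-10). 5637 held 42.6, 56.0 and 45.7 CPM with MMC and 17.5, 18.3 and 18.3 CPM without, a log2 fold change of 1.41 (SE 0.17, edgeR adjusted p = 8.25e-07). No treated library of either line reached down to an untreated one. In TCC-SUP the 66.8, 59.0 and 48.8 CPM of treated libraries overlapped the 53.4, 40.9 and 63.4 CPM of untreated ones. The log2 fold change there was 0.15, with a 95% interval of -0.19 to 0.48 (edgeR adjusted p = 0.571). In CLS-439 treated libraries held 61.2, 71.7 and 74.5 CPM, all below the 79.8, 83.8 and 81.7 CPM of untreated ones. That difference, -0.24 on the log2 scale with a 95% interval of -0.58 to 0.10, did not pass the test (edgeR adjusted p = 0.839).

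GADD45G was barely detected. Raw counts were 2, 0 and 0 in MMC-treated T24 libraries and 0 in each of the 3 untreated ones, a total that allows up to 0.0404 CPM over the group (3 counts, counting error only). They were 3, 4 and 4 with MMC and 0, 2 and 0 without in 5637, and 2, 8 and 5 with MMC and 3, 5 and 2 without in TCC-SUP. CLS-439 held the most, with 14, 19 and 20 counts in treated and 10, 20 and 8 in untreated libraries. Summed over each group that is 0.899 CPM in treated CLS-439 cells (exact 95% Poisson interval 0.673 to 1.18) and 0.616 CPM in untreated ones (0.436 to 0.846). No single line passed the edgeR test, with adjusted p between 0.0942 in 5637 and 0.908 in CLS-439. The 5637 difference was called without 5637 NT replicate 3 (adjusted p = 0.0297) and without replicate 3 of all groups (adjusted p = 0.0494), which removes the 2 untreated counts. The average over the 4 lines did, at adjusted p = 0.0407, but that fitted average depends on groups holding 0 to 2 counts. It lost the call in 17 of 32 alternatives, among them the removal of T24 MMC replicate 1, which holds the 2 counts in treated T24 cells.

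PPP1R15A, the inducible subunit, rose in the same 3 lines as GADD45A. T24 held 559, 534 and 717 CPM with MMC and 74.2, 80.2 and 77.9 CPM without, a log2 fold change of 2.96 (SE 0.16, edgeR adjusted p = 8.54e-12). 5637 held 574, 440 and 526 CPM with MMC and 115, 119 and 105 CPM without, a log2 fold change of 2.18 (SE 0.16, edgeR adjusted p = 9.84e-10). Treated and untreated libraries were well apart in both lines. In TCC-SUP the levels were 192, 220 and 220 CPM with MMC and 99.99, 119 and 116 CPM without. They did not overlap, and the log2 fold change was 0.92 (SE 0.15, edgeR adjusted p = 0.000244), which lost its call without replicate 4 (0.91, adjusted p = 0.0608). CLS-439 held 59.2, 103 and 83.3 CPM with MMC and 58.3, 63.4 and 54.2 CPM without. Its lowest treated library, replicate 1, lay among the untreated ones, and the log2 fold change of 0.48 was not called (SE 0.15, 95% interval 0.15 to 0.81, edgeR adjusted p = 0.245). Leaving out CLS-439 MMC replicate 1, the shallowest library of the series, gave 0.67 and adjusted p = 0.0268, and leaving out replicate 1 of all groups gave 0.66 and adjusted p = 0.0255.

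PPP1R15B, the constitutive subunit, had a smaller log2 fold change than PPP1R15A in each line. In T24 it held 87.3, 139 and 121 CPM with MMC and 59.8, 63.2 and 77.1 CPM without, a log2 fold change of 0.80 (SE 0.16, edgeR adjusted p = 0.00064). The treated libraries lay above the untreated ones, and the call was lost without replicate 3 (0.59, adjusted p = 0.0637). In 5637 it held 93.8, 102 and 118 CPM with MMC and 70.3, 82.9 and 89.9 CPM without. That log2 fold change of 0.37 was not called (95% interval 0.03 to 0.71, edgeR adjusted p = 0.0891), but it was 0.52 with adjusted p = 0.0225 when library totals replaced TMM scaling. TCC-SUP held 102, 148 and 126 CPM with MMC and 112, 87.2 and 102 CPM without, with overlapping groups and a log2 fold change of 0.32 (edgeR adjusted p = 0.167). Without replicate 1 it was 0.51 and was called (adjusted p = 0.00963). CLS-439 held 60.2, 62.8 and 57.3 CPM with MMC and 48.5, 54.3 and 50.2 CPM without, groups that did not overlap but were not called apart (0.24, 95% interval -0.11 to 0.58, edgeR adjusted p = 0.858). Averaged over the 4 lines the log2 fold change of PPP1R15B was 0.43 (SE 0.08, edgeR adjusted p = 0.000142).

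**Figure D2:**
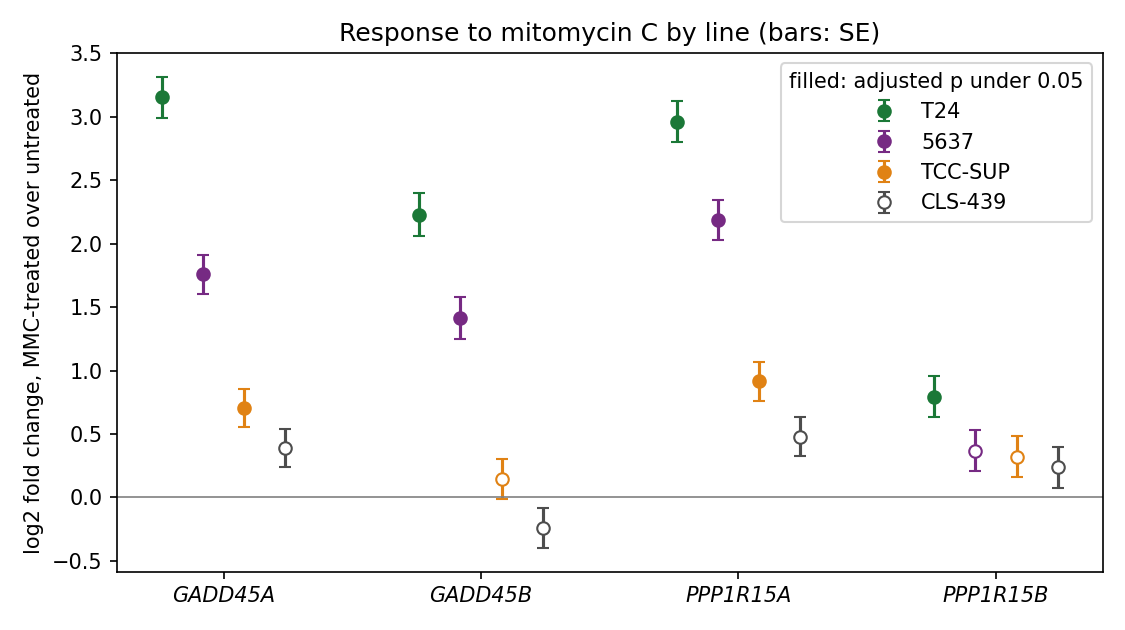
Log2 fold change of MMC-treated over untreated cells in each line for the 4 members with measurable counts, with standard errors from the edgeR fit. Filled points had an adjusted p under 0.05 and open points did not. GADD45A, GADD45B and PPP1R15A all ran from T24 at the top through 5637 and TCC-SUP to CLS-439, whereas the PPP1R15B points lay between 0.24 and 0.80.

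GADD45A, GADD45B, PPP1R15A and PPP1R15B were called higher on average over the 4 lines, in a contrast where 19.1% of genes tested were called higher. The mean log2 fold changes were 1.502 for GADD45A, 0.89 for GADD45B and 1.64 for PPP1R15A, and nothing is read from the GADD45G average described above. Without the CLS-439 libraries these means were 1.86, 1.25 and 2.01, that of PPP1R15B was 0.48 (each still called), and GADD45G did not pass the filter on low counts. An edgeR test with 3 degrees of freedom asked whether the response was unequal among the lines, and it called 16% of genes. It called GADD45A (adjusted p = 2.71e-08), GADD45B (adjusted p = 2.53e-07) and PPP1R15A (adjusted p = 1.54e-07), which were also called among the other 3 lines without CLS-439 (adjusted p = 2.97e-06, 0.000199 and 2.05e-05), and did not call PPP1R15B (adjusted p = 0.241) or GADD45G (adjusted p = 0.429). Without T24 MMC replicate 1, PPP1R15B was called as well (adjusted p = 0.0342). The order of response was T24, 5637, TCC-SUP and CLS-439 for GADD45A, GADD45B and PPP1R15A, with no difference called between the last 2 lines.

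Between the 2 strongest responders, T24 exceeded 5637 by 1.40 log2 units for GADD45A (SE 0.21, edgeR adjusted p = 0.000432), a contrast in which 3.47% of genes were called. For GADD45B and PPP1R15A the same contrast passed narrowly, at 0.81 (adjusted p = 0.0468) and 0.78 (adjusted p = 0.0453). For GADD45B, 10 of the 12 omissions of 1 T24 or 5637 library ended it, giving 0.72 to 0.86 with adjusted p of 0.0603 to 0.114, and the fit with a replicate block also did (0.81, adjusted p = 0.0558). For PPP1R15A, 9 of the 12 did, giving 0.64 to 0.83 with adjusted p of 0.0665 to 0.144. The libraries that kept the call when left out were T24 MMC replicate 3 and 5637 MMC replicate 3 for GADD45B, and T24 MMC replicates 1 and 3 and 5637 MMC replicate 1 for PPP1R15A. For GADD45A, every omission of a single library kept the call of T24 over 5637, and leaving out replicate 4 of all groups ended it (1.40, adjusted p = 0.0965).

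T24 exceeded TCC-SUP by 2.45, 2.08 and 2.05 log2 units for GADD45A, GADD45B and PPP1R15A, and 5637 exceeded TCC-SUP by 1.05, 1.27 and 1.27. All 6 differences were called, where the fit called 3.79% and 2.7% of genes. Without replicate 4 of all groups the 5637 excess over TCC-SUP was no longer called for GADD45A (0.97, adjusted p = 0.435), GADD45B (1.04, adjusted p = 0.403) or PPP1R15A (1.21, adjusted p = 0.319), and without replicate 3 of all groups it was not called for GADD45A (1.22, adjusted p = 0.0638). T24 exceeded CLS-439 by 2.76, 2.47 and 2.48 log2 units and 5637 exceeded CLS-439 by 1.37, 1.66 and 1.71, again all called, against 10.1% and 9.02% of genes. The 5637 difference from CLS-439 in GADD45A was lost without replicate 4 of all groups (1.37, adjusted p = 0.0547). Between TCC-SUP and CLS-439, where 2.65% of genes were called, edgeR called 0 of the 5 members, 0 had an unadjusted p under 0.05 and DESeq2 called 0. The intervals there were wide, from -0.14 to 0.77 for GADD45A and from -0.02 to 0.90 for PPP1R15A. GADD45G, one of the 5, held at most 20 counts in any library of these lines. PPP1R15B was called in 0 of the 6 contrasts by edgeR and in 0 by DESeq2, with T24 above TCC-SUP and above CLS-439 at unadjusted p of 0.0482 and 0.0222. The T24 excess over CLS-439 was 0.56 (95% interval 0.07 to 1.04, adjusted p = 0.128), and it was called without T24 MMC replicate 1 (0.74, adjusted p = 0.0166).

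The 2 phosphatase subunits were also compared inside each library, where scaling cancels. Such count ratios are not corrected for exon length (3093 bases in PPP1R15A and 5227 in PPP1R15B). Only their change with MMC is read, not which gene stood higher. The count of PPP1R15A relative to PPP1R15B was 6.41, 3.84 and 5.93 in MMC-treated T24 libraries and 1.24, 1.27 and 1.01 in untreated ones. It was 6.12, 4.32 and 4.45 in treated and 1.63, 1.43 and 1.17 in untreated 5637 libraries, and 1.88, 1.49 and 1.74 in treated and 0.897, 1.37 and 1.14 in untreated TCC-SUP libraries. In all 3 lines every treated library was above every untreated one. The mean log2 ratio was higher by 2.17 in T24, 1.81 in 5637 and 0.60 in TCC-SUP, each with an exact two-sided permutation p of 0.1, the smallest that 3 against 3 allows. In CLS-439 the ratio was 0.982, 1.64 and 1.45 with MMC and 1.20, 1.17 and 1.08 without, overlapping, with a difference of 0.21 (exact two-sided permutation p = 0.4). Over all 4 lines, with labels permuted within line, the mean difference was 1.20 (exact two-sided p = 8.75e-05 over 160000 arrangements). Without CLS-439 it was 1.53 (exact two-sided p = 0.00025 over 8000).

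GADD45A also gained on GADD45B inside the libraries. The log2 ratio of GADD45A to GADD45B averaged 2.15 ± 0.26 in treated and 1.21 ± 0.12 in untreated T24 libraries, and 1.52 ± 0.23 in treated and 1.17 ± 0.01 in untreated 5637 libraries (SD, n = 3 each). TCC-SUP averaged 0.31 ± 0.38 with MMC and -0.24 ± 0.12 without, and CLS-439 averaged 0.43 ± 0.07 with MMC and -0.22 ± 0.30 without. Treated libraries lay above untreated ones in each line, by 0.94, 0.35, 0.55 and 0.65 log2 units in T24, 5637, TCC-SUP and CLS-439, each with an exact two-sided permutation p of 0.1. The mean over the 4 lines was 0.62, at an exact two-sided permutation p of 1.25e-05, the smallest that 160000 arrangements allow. Without CLS-439 it was also 0.62 (exact two-sided p = 0.00025, the smallest that 8000 allow). In CLS-439 neither gene was called by itself, and their ratio was nonetheless higher in each of the 3 treated libraries than in any untreated one.

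**Figure D3:**
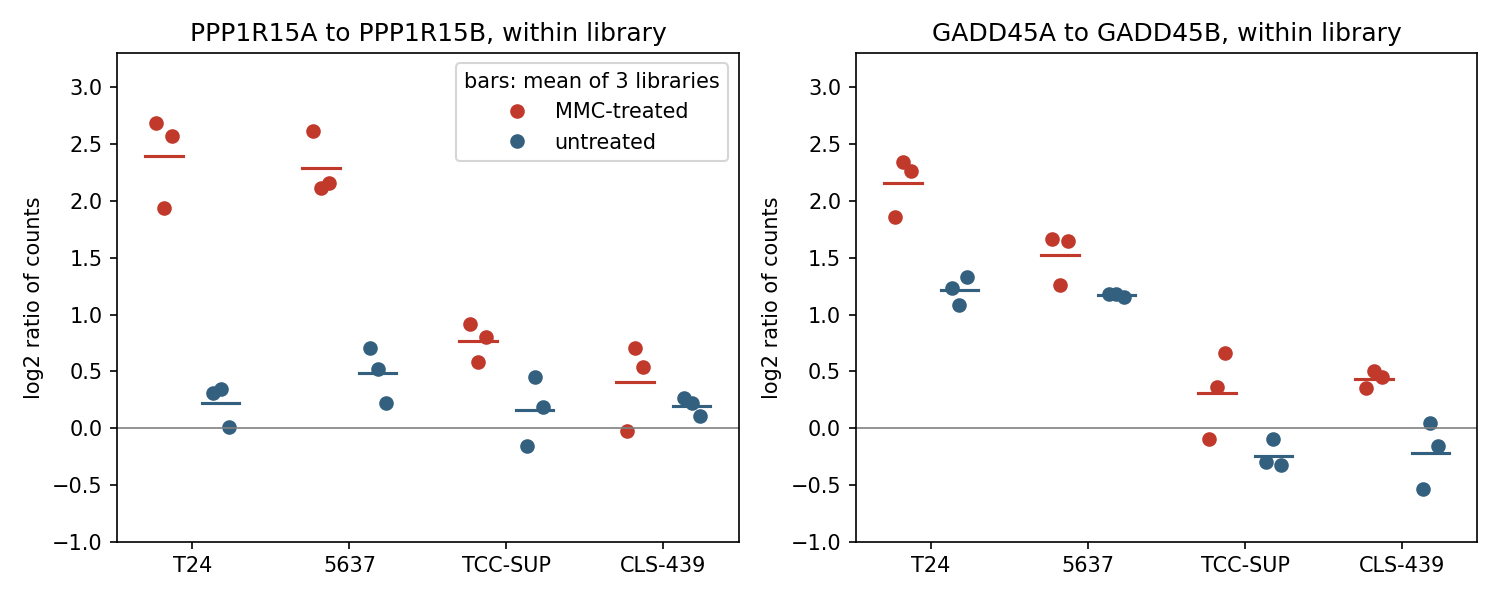
Log2 ratio of the raw counts of 2 members within each library, PPP1R15A to PPP1R15B in one panel and GADD45A to GADD45B in the other, with MMC-treated libraries left of untreated ones in each line and the mean as a bar. Treated libraries lie above untreated ones in all 4 lines for GADD45A to GADD45B, and in T24, 5637 and TCC-SUP but not CLS-439 for PPP1R15A to PPP1R15B.

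Levels between lines were compared in the same fit by 6 contrasts of treated and 6 of untreated lines. Between 46.6% and 78.6% of genes were called in these contrasts, so a call here is common. Among treated lines the contrasts called 49.2% of genes for T24 against 5637, 49% for T24 against TCC-SUP, 75.1% for T24 against CLS-439, 54.7% for 5637 against TCC-SUP, 75.6% for 5637 against CLS-439 and 78.6% for TCC-SUP against CLS-439. Among untreated lines the same pairs called 46.6%, 51.3%, 72.3%, 56.6%, 73.7% and 77% of genes. After MMC, GADD45A was called in 6 pairs, GADD45B in 4, PPP1R15A in 5 and PPP1R15B in 3. In untreated cells the numbers were 4, 6, 5 and 4. No count of pairs is given for GADD45G, which entered the test through its CLS-439 counts.

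Treated GADD45A averaged 722 ± 88.3 CPM in T24, 137 ± 5.23 in 5637, 93.7 ± 13.4 in CLS-439 and 72.0 ± 8.20 in TCC-SUP (SD, n = 3 each), and all neighbours in that order differed. The last step, TCC-SUP below CLS-439, was small (-0.38, edgeR adjusted p = 0.0242) and was lost without CLS-439 MMC replicate 3 (-0.32, adjusted p = 0.0884) or 4 (-0.32, adjusted p = 0.0908) and without TCC-SUP MMC replicate 1 (-0.29, adjusted p = 0.118) or 3 (-0.37, adjusted p = 0.0572). Untreated GADD45A fell into a higher pair, T24 at 81.1 ± 9.41 CPM and CLS-439 at 71.6 ± 15.8, and a lower pair, TCC-SUP at 44.1 ± 6.18 and 5637 at 40.6 ± 0.858 (SD, n = 3 each). Neither pair differed within itself (adjusted p = 0.287 and 0.538).

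GADD45B in treated cells was highest in T24 (164 ± 31.4 CPM) and lower in CLS-439 (69.1 ± 7.01), TCC-SUP (58.2 ± 9.004) and 5637 (48.1 ± 7.01), where neighbours did not differ (adjusted p = 0.157 and 0.155) but CLS-439 and 5637 did (adjusted p = 0.00499). In untreated cells the order was CLS-439 (81.8 ± 2.02), TCC-SUP (52.6 ± 11.3), T24 (34.9 ± 2.05) and 5637 (18.1 ± 0.442), and each step was called (SD, n = 3 each).

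PPP1R15A in treated cells averaged 603 ± 99.5 CPM in T24 and 513 ± 68.1 in 5637, which did not differ (adjusted p = 0.217), then 211 ± 16.1 in TCC-SUP and 81.7 ± 21.8 in CLS-439. In untreated cells 5637 (113 ± 7.01) and TCC-SUP (112 ± 10.3) did not differ (adjusted p = 0.982) and stood above T24 (77.4 ± 3.03) and CLS-439 (58.7 ± 4.61). The untreated step of T24 over CLS-439 (0.40, adjusted p = 0.0228) depended on the scaling and was 0.12 with adjusted p = 0.48 with library totals and 0.32 with adjusted p = 0.0686 with RLE factors. It was also lost without CLS-439 NT replicate 1 (0.40, adjusted p = 0.0537) or 4 (0.35, adjusted p = 0.0866). Treated PPP1R15B stood at 125 ± 22.8 CPM in TCC-SUP, 116 ± 26.3 in T24 and 105 ± 12.5 in 5637, with no difference called among these, and at 60.1 ± 2.77 in CLS-439. Untreated PPP1R15B ran from 100.1 ± 12.2 CPM in TCC-SUP through 81.0 ± 9.93 in 5637 and 66.7 ± 9.18 in T24 to 51.0 ± 2.97 in CLS-439 (SD, n = 3 each), and only the last neighbours were called apart (T24 over CLS-439 0.39, adjusted p = 0.0357). That step was lost with library totals (0.11, adjusted p = 0.59), with RLE factors (0.30, adjusted p = 0.0945), and without CLS-439 NT replicate 1 (0.35, adjusted p = 0.0982) or 4 (0.38, adjusted p = 0.0802) or T24 NT replicate 4 (0.30, adjusted p = 0.143).

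Levels of different members were compared per kilobase of annotated exon, in CPM per kilobase, whereas the count ratios above were not corrected for length. In MMC-treated T24 cells GADD45A stood highest at 349 ± 42.7, then PPP1R15A at 195 ± 32.2, GADD45B at 76.5 ± 14.7 and PPP1R15B at 22.1 ± 5.03, while untreated T24 cells held 39.2 ± 4.55, 25.04 ± 0.978, 16.3 ± 0.957 and 12.8 ± 1.76 CPM per kilobase in the same gene order (SD, n = 3 each). In 5637 the top place went to PPP1R15A in both states, at 166 ± 22.0 CPM per kilobase with MMC and 36.5 ± 2.27 without, with GADD45A at 66.4 ± 2.53 with MMC and 19.6 ± 0.415 without. TCC-SUP had the same leader, PPP1R15A at 68.1 ± 5.21 with MMC and 36.1 ± 3.33 without. In CLS-439 GADD45A led the treated cells at 45.3 ± 6.47, while in untreated cells GADD45B at 38.2 ± 0.945 and GADD45A at 34.6 ± 7.65 CPM per kilobase overlapped, and PPP1R15A was at 26.4 ± 7.05 with MMC and 19.0 ± 1.49 without. The catalytic partner PPP1CA, expressed at 143 to 305 CPM in treated and 158 to 331 CPM in untreated groups on average, was called in no line by edgeR, with log2 fold changes between -0.14 and -0.01 (adjusted p of 0.509 or more). PPP1CB and PPP1CC, the other catalytic genes, fell in T24, by 0.71 (adjusted p = 0.00772) and 0.85 (adjusted p = 0.000108) on the log2 scale.

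Counts of other genes in the pathways were taken from 9 lists with 124 symbols in all, all of which were tested. Some genes stand on 2 lists and count in both, among them CDKN1A, ATF3, ATF4, DDIT3 and DUSP1. The lists are therefore not independent of each other. Across the lists 52 genes rose and 16 fell in T24, 35 rose and 16 fell in 5637, 29 rose and 16 fell in TCC-SUP, and 11 rose and 2 fell in CLS-439. Of all genes tested, 15.2%, 15.9%, 9.57% and 0.298% were called higher in T24, 5637, TCC-SUP and CLS-439. In the same order of lines, 13.4%, 13.6%, 11.1% and 0.322% were called lower. The list counts below are to be read against these shares, and a count near them is not a result about the list. The median log2 fold change of all tested genes was 0 in each line with TMM scaling. For genes averaging 10 CPM or more it was -0.03, -0.03, -0.01 and 0.002 in T24, 5637, TCC-SUP and CLS-439. Library totals moved every value up by 0.11, 0.145 and 0.13 in T24, 5637 and TCC-SUP and by 0.03 in CLS-439. List medians within that distance of 0 are to be read with that shift in mind. With library totals in place of TMM the split in 5637 was 49 higher and 13 lower, and in TCC-SUP 34 higher and 10 lower.

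The integrated stress response list, which holds genes acting beside PPP1R15A, had more genes called in T24 and 5637 than in TCC-SUP. Of 17 genes, 13 rose in T24 (median 1.35), 9 rose and 2 fell in 5637 (median 0.54), and 2 rose and 4 fell in TCC-SUP (median -0.41). In CLS-439 edgeR called 0 of 17, with 5 at an unadjusted p under 0.05 and 1 called by DESeq2 (median 0.27). DDIT3, which activates PPP1R15A transcription, rose by 2.89 in T24 (adjusted p = 1.09e-11) and 1.96 in 5637 (adjusted p = 1.20e-08), with 0.23 in TCC-SUP and 0.05 in CLS-439, neither called. ATF3, a stress-induced repressor, rose by 5.59, 4.33 and 2.24 in T24, 5637 and TCC-SUP and stood at 0.83 in CLS-439 (adjusted p = 0.25). ATF4, which is controlled mainly at translation, rose by 0.58 in T24 (adjusted p = 0.0184), fell by 0.99 in TCC-SUP (adjusted p = 0.000515) and was not called in 5637 or CLS-439. CHAC1, a glutathione-degrading enzyme under ATF4 control, rose by 3.48 in T24 and 2.82 in 5637 and stood at -0.83 in TCC-SUP (adjusted p = 0.0525). ASNS, asparagine synthetase, rose by 3.97, 3.36 and 1.63 in T24, 5637 and TCC-SUP. In TCC-SUP PPP1R15A, ATF3 and ASNS rose, ATF4 mRNA fell and DDIT3 was not called. A link between these changes was not tested.

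The next list covers the circuit that PPP1R15A and PPP1R15B act on. Of 17 genes for eIF2, its exchange factor, its kinases and the phosphatase, 1 rose and 4 fell in T24, 5 fell in 5637, 2 rose and 5 fell in TCC-SUP, and edgeR called 0 in CLS-439, where 0 had an unadjusted p under 0.05 and DESeq2 called 0. With library totals 2 rose and 1 fell in TCC-SUP. The list medians lay between -0.14 and 0.06. EIF2AK4 (GCN2), the kinase that senses uncharged tRNA, fell by 0.84 in T24, 0.94 in 5637 and 0.42 in TCC-SUP (adjusted p = 3.54e-05, 8.25e-06 and 0.0226) and stood at 0.00 in CLS-439. The other kinases EIF2AK1 (HRI), EIF2AK2 (PKR) and EIF2AK3 (PERK) were called in no line by edgeR, with log2 fold changes from -0.33 to 0.12. EIF2B3, a subunit of the exchange factor eIF2B, fell by 0.71, 0.93 and 0.66 in T24, 5637 and TCC-SUP, and EIF2B2, another subunit, rose by 0.76 in T24. EIF2S1, which encodes eIF2 alpha itself, rose by 0.56 in TCC-SUP (adjusted p = 0.0301).

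The list of DNA damage-induced genes had genes called higher in every line. Of 25 genes, 13 rose and 2 fell in T24 (median 0.54), 8 rose and 1 fell in 5637 (median 0.38), 9 rose in TCC-SUP (median 0.28) and 10 rose in CLS-439 (median 0.88). With library totals 15 rose in 5637, and with no filter on low counts 17 rose in CLS-439. CDKN1A, which encodes the cell-cycle inhibitor p21, rose by 2.59, 1.27, 1.21 and 2.58 in T24, 5637, TCC-SUP and CLS-439, with adjusted p from 4.61e-09 to 0.000244. MDM2, which encodes a ubiquitin ligase, rose by 1.53 in CLS-439 (adjusted p = 4.35e-06) and stood at 0.38, 0.32 and 0.28 in T24, 5637 and TCC-SUP, not called. BBC3 (PUMA), a pro-apoptotic gene, rose by 2.12 in T24 and 2.20 in 5637. In CLS-439 CDKN1A and MDM2 rose, and GADD45A, another DNA damage-induced gene, was not called. Its log2 fold change there was 0.39 (SE 0.15, edgeR unadjusted p = 0.016, adjusted p = 0.432). Whether GADD45A responded differently from CDKN1A or MDM2 was not tested.

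The NF-kB list holds the subunits of the factor together with other genes of its pathway. Of its 11 genes, 11 were called higher in T24 (median 2.51), 7 in 5637 (median 0.87), 8 in TCC-SUP (median 0.80) and 1 in CLS-439 (median 0.23). RELB, an NF-kB subunit, rose by 4.39, 0.87 and 1.36 in T24, 5637 and TCC-SUP, and TRAF1, a signalling adaptor, by 5.11, 2.88, 1.07 and 1.99 in T24, 5637, TCC-SUP and CLS-439. The CLS-439 call of TRAF1 was narrow (edgeR adjusted p = 0.0443) and at low levels. It held 0.562 to 1.83 CPM with MMC and 0.21 to 0.67 CPM without there, so the groups overlapped. TNFAIP3, the feedback inhibitor A20, rose by 4.38, 1.34 and 1.45 in T24, 5637 and TCC-SUP. In TCC-SUP 8 NF-kB genes rose and GADD45B was not called (0.15, SE 0.16, edgeR adjusted p = 0.571). A link between GADD45B and these genes was not tested. Among 14 immediate-early genes, 11 were called higher in T24 (median 1.04), 9 in 5637 (median 0.81) and 4 in TCC-SUP (median 0.24). In CLS-439 edgeR called 0 of them, 5 had an unadjusted p under 0.05 and DESeq2 called 2. FOSB rose by 2.25, 4.23 and 3.01 and FOS by 3.62, 2.71 and 1.28 in T24, 5637 and TCC-SUP.

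The p38 and JNK list holds the kinases through which GADD45 proteins act. Of its 17 genes 3 rose and 5 fell in T24, 1 rose and 4 fell in 5637, and 2 rose and 4 fell in TCC-SUP, but with library totals 3 rose and 3 fell in T24 and in 5637 alike. In CLS-439 edgeR called 0, 1 had an unadjusted p under 0.05 and DESeq2 called 0, and the medians lay between -0.22 and -0.04 over the 4 lines. MAP3K4, the kinase that GADD45 proteins bind and activate, fell by 0.77, 0.78 and 0.96 in T24, 5637 and TCC-SUP (adjusted p of 0.000118 or less) and stood at -0.33 in CLS-439 (adjusted p = 0.483). MAP2K6, a p38-activating kinase, fell in the same 3 lines, with log2 fold changes of -3.72, -3.39 and -2.57. Its levels were low, averaging 0.277, 0.632 and 0.135 CPM with MMC and 3.60, 6.72 and 0.799 CPM without in T24, 5637 and TCC-SUP. MAPK10 (JNK3) held 1 count in treated and 54 counts in untreated 5637 cells, summed over 3 libraries each. DUSP1, a phosphatase that switches the kinases off, rose by 0.97, 1.81 and 1.35 in T24, 5637 and TCC-SUP, and DUSP10 rose by 3.42 in T24.

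Of 9 cell-cycle and repair partners, 1 rose and 4 fell in T24, 3 rose and 2 fell in 5637, 1 rose and 3 fell in TCC-SUP, and 1 rose and 2 fell in CLS-439. CCNB1, which encodes cyclin B1, fell in every line, by 1.51, 1.36, 0.71 and 1.01 in T24, 5637, TCC-SUP and CLS-439, and AURKA, a mitotic kinase, fell by 1.06, 1.23, 0.39 and 0.87. CDK1 fell by 0.45 in T24 (adjusted p = 0.0154) and rose by 0.43 in 5637 (adjusted p = 0.0185), and PCNA rose by 0.44 in 5637 (adjusted p = 0.00935). With library totals the T24 count was 1 higher and 2 lower and the TCC-SUP count 3 higher and 1 lower. Among 7 DNA demethylation partners 1 rose and 1 fell in T24, 1 rose in 5637 and 1 rose in TCC-SUP. These counts are near the shares over all genes, 15.2% higher and 13.4% lower in T24, 15.9% higher in 5637 and 9.57% higher in TCC-SUP. With library totals 2 of the 7 rose and 1 fell in T24. In CLS-439 edgeR called 0, with 0 at an unadjusted p under 0.05 and 0 by DESeq2. TET1, a 5-methylcytosine dioxygenase, fell by 1.34 in T24 (adjusted p = 0.000613), and ING1, a chromatin reader, rose by 0.53 in 5637 and 0.59 in TCC-SUP. In the list of 17 transcription factors known to act on the members, 8 rose in T24, 4 rose and 2 fell in 5637 (6 and 1 with library totals), and 4 rose and 1 fell in TCC-SUP. In CLS-439 edgeR called 0, 3 had an unadjusted p under 0.05 and DESeq2 called 0. EGR1 rose by 3.04 in T24 (adjusted p = 0.00114), ZNF350, a repressor that acts with BRCA1 on GADD45A, rose by 1.83 in T24 and 0.96 in TCC-SUP, and MYC fell by 1.42 in 5637.

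**Figure D4:**
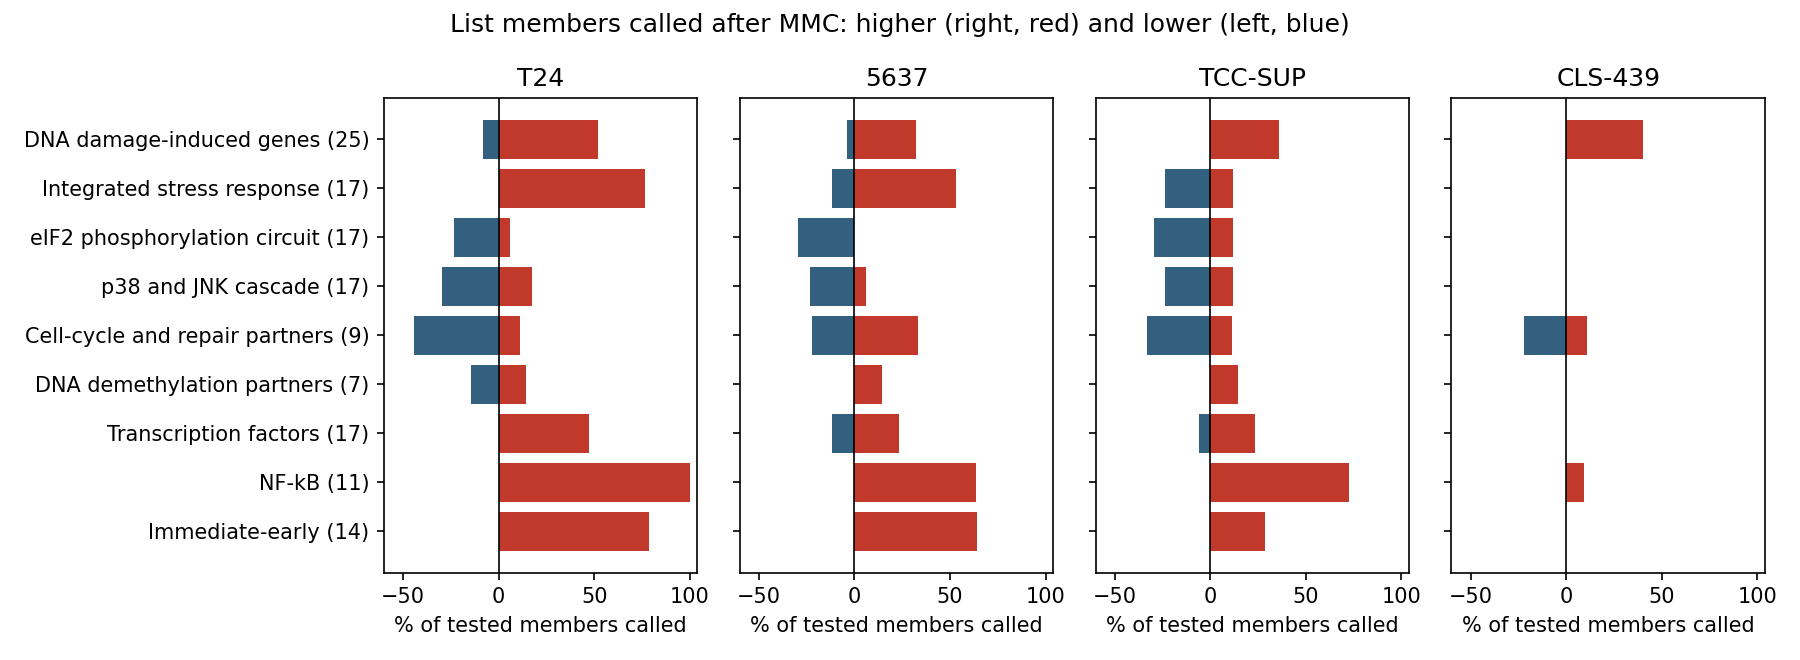
Share of each of the 9 pathway lists, in percent of tested genes, that was called higher (right of 0) or lower (left of 0) after MMC in each line by edgeR at an adjusted p under 0.05. The NF-kB bar reaches 11 of 11 genes in T24, and in CLS-439 the list of DNA damage-induced genes had 10 of 25 called higher and the cell-cycle and repair list 3 of 9 called in either direction.

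The pattern over libraries was compared with that of 12114 genes reaching 10 CPM in at least 1 group, as Pearson's r of log2 CPM after each line's mean was removed. These 24 points share lines, libraries and the treatment contrast, so r describes likeness only. The CLS-439 libraries are among them, and r was not taken without them. GADD45A and PPP1R15A were most like each other among the members (r = 0.978), and each stood second in the other's ranking. The gene nearest to GADD45A was TUFT1 (r = 0.981), followed after PPP1R15A by ITPRIP (0.968), ATF3 (0.964) and ZNF79 (0.962). TUFT1 averaged 173 ± 20.6, 245 ± 11.5, 180 ± 11.8 and 125 ± 21.9 CPM with MMC in T24, 5637, TCC-SUP and CLS-439, against 30.4 ± 4.60, 94.2 ± 6.89, 107 ± 10.2 and 90.1 ± 2.5 CPM without (SD, n = 3 each). PPP1R15A was nearest to TOP3A (0.981), GADD45A (0.978), CSRNP1 (0.978), TUFT1 (0.975) and TXNL4B (0.971). GADD45B was nearest to PRELID3A (0.955), DDIT3 (0.953), EPHX1 (0.943), GADD45A (0.942) and TSC22D3 (0.931). PPP1R15B was nearest to ZBTB21 (0.949), CPEB4 (0.929), OSER1 (0.928), CYLD (0.926) and SDE2 (0.922), and its r with PPP1R15A was 0.787. For GADD45G no r exceeded 0.74, that of ZFP36, and its counts were too low for this to be read.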

How the data were processed

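Poly(A) RNA of 24 libraries was sequenced with a stranded kit, per the labels' protocols. The authors deposited whole-number counts of reads per gene, made with STAR 2.5.3a and featureCounts 1.6.2 on GRCh38, per the submitters' processing notes. How featureCounts handled strand and multi-mapping reads, and which annotation release it used, is not given in these sources. Reads shared by near-identical genes could therefore be lost or split.

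From these counts, symbols were read from GENCODE release 29. Genes were filtered with filterByExpr, which left 20820 genes with 99.9% of counts. Libraries were scaled by TMM and fitted with edgeR 4.0.16 (limma 3.58.1, R 4.3.3) by a robust quasi-likelihood model with 1 mean for each of 8 groups, 16 residual degrees of freedom and Benjamini-Hochberg adjustment over all tested genes. Intervals are the log2 fold change ± the t quantile at 16 degrees of freedom times its standard error, and are unadjusted. CPM are on TMM-scaled totals. Levels per kilobase use the merged exon length. Within-library ratios were tested by exact two-sided permutation. Upstream sequences are from RefSeq (4 of the 5 members matched, and GADD45A is named only).

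The members and pathway lists were chosen with earlier results of these data known, so list counts are descriptions. Named from each list were up to 4 genes with the largest absolute mean response among those called in at least 1 line, with a fixed set of partners, kinases and stress genes. Some genes that met the rule are not reported here. TET3 and CDC25B, NCK1, ICAM1 and BTG2 also met the rule and are not described further. Replicate numbers were checked for pairing by the correlation of deviations from group means. Every pair of numbers exceeded 0.1 in 5637 and CLS-439 (0.15 to 0.56), but T24 (-0.28 to 0.54) and TCC-SUP (-0.28 to 0.071) did not meet this, so the main fit has no block. No 2 libraries of the same group agreed within sampling noise. The fitting steps were tested on simulated data. DESeq2 1.42.0, RLE factors, library totals, no filter, a replicate block, each line alone, the fit without CLS-439, and omission of each replicate number and each library were tried as alternatives.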

Additional observations from a re-analysis of the deposited data

Results flagged for a closer look

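For GADD45A, GADD45B and PPP1R15A the response to MMC differed among the 4 lines by a direct test (edgeR adjusted p = 2.71e-08, 2.53e-07 and 1.54e-07), and 5 of the 6 pairwise differences were called for each gene. In log2 units, T24 minus 5637 was 1.40 for GADD45A, 0.81 for GADD45B and 0.78 for PPP1R15A. T24 minus TCC-SUP was 2.45, 2.08 and 2.05, and T24 minus CLS-439 was 2.76, 2.47 and 2.48, in the same gene order. For 5637 minus TCC-SUP the differences were 1.05, 1.27 and 1.27, and for 5637 minus CLS-439 they were 1.37, 1.66 and 1.71. CLS-439 is also the line whose libraries stood apart in mitochondrial and pseudogene counts, and the part of that in these differences was not tested. The differences among T24, 5637 and TCC-SUP do not use the CLS-439 group means. They come from the same fit, though, whose filter, scaling, dispersion and adjustment include the CLS-439 libraries. In the fit without CLS-439, described above, each of these genes was still called as unequal among the other lines.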

How the results depend on the processing

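No direction of a called result reversed under any alternative run. Over single replicate numbers and libraries left out, the TCC-SUP log2 fold change was 0.57 to 0.81 for GADD45A, 0.83 to 0.98 for PPP1R15A and 0.095 to 0.51 for PPP1R15B. The CLS-439 value of PPP1R15A was 0.28 to 0.67, the T24 value of PPP1R15B 0.59 to 0.97, and the adjusted p for a difference of PPP1R15B response among lines 0.0342 to 0.749. For GADD45G the mean response was 0.69 to 2.41 and the 5637 value 1.54 to 4.92, fits that rest on 0 to 4 counts a library. With library totals in place of TMM the PPP1R15B value in 5637 was 0.52, where this scaling raised every gene by 0.145. Untreated pairs called were 2 to 5 for PPP1R15A (2 without replicate 4) against 5, and 2 with library totals against 4 for PPP1R15B. Over all 9 lists, 10 genes fell in TCC-SUP with library totals against 16, and 21 rose in CLS-439 with no filter and 17 with DESeq2 against 11. Within single lists, library totals gave 15 DNA damage-induced genes higher in 5637 against 8, and no filter 17 in CLS-439 against 10. With no filter 7 integrated stress response genes fell in TCC-SUP against 4 and 3 rose in CLS-439 against 0, where library totals and DESeq2 gave 1. With no filter 2 eIF2 circuit genes fell in TCC-SUP against 5, and 1 rose against 2. In the same setting 2 transcription factor genes rose and 2 fell in TCC-SUP against 4 and 1, no DNA demethylation gene rose in T24 or 5637 against 1 each, and 1 DNA damage-induced gene fell in TCC-SUP against 0. DESeq2 and no filter each gave 2 NF-kB genes higher in CLS-439 against 1 and 2 immediate-early genes against 0. DESeq2 gave 2 DNA demethylation genes higher in T24 against 1, and 1 lower in TCC-SUP against 0. Library totals gave 2 of them higher in TCC-SUP against 1. The cause of these changes was not tested. With the replicate block the T24 excess over 5637 in GADD45B was 0.81 (adjusted p = 0.0558), and the block changed no other call of a response or difference in a member. Depth limits GADD45G, where 3 counts over a group correspond to 0.0404 to 0.0509 CPM.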
